A study of Mus musculus with 8 samples.

Results

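Nuclear-encoded respiratory chain genes are the genes of the cell nucleus whose proteins are imported into mitochondria and built into complexes I to V of the inner membrane. They were chosen by name: of the 55573 genes counted, 87 carried a symbol of the Nduf, Sdh, Uqcr, Cyc1, Cox4 to Cox8 or Atp5 families, and 86 of these were annotated as protein-coding. The set held 36 genes of complex I, 4 of complex II, 9 of complex III, 19 of complex IV and 18 of complex V, with Ndufa4 counted in complex IV, where its protein is now placed. RNA came from cultured colon fibroblasts of C57BL6/J mice that had all received medium conditioned by APTKA, a name the labels leave unexplained. One group of 4 libraries came from irradiated cells, which received 3 fractions of 2 Gy, and the other 4 libraries came from non-irradiated cells. Both groups grew as flat cultures on plates in Advanced DMEM F12 with 10% FBS, and RNA was taken 72 h after the first dose. The labels do not say whether replicates I to IV of a group came from different animals or cultures, and the p-values therefore rest on a spread between samples that may be technical only.

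Complex I oxidises NADH and complex II oxidises succinate. Both pass electrons through coenzyme Q to complex III, from there through cytochrome c to complex IV, which reduces oxygen, and the proton gradient built on the way drives ATP synthesis by complex V. Most subunits are encoded in the nucleus and a few, none of them in complex II, in the mitochondrial genome. A working complex I, III, IV or V therefore needs the products of both. Several complex IV subunits exist as a common form and as forms found mainly in heart and skeletal muscle, lung or testis.

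Counts per library totalled 28731227 to 37157216, so 3 counts, the limit that a count of 0 allows, correspond to 0.0812 to 0.105 CPM (counts scaled to TMM-adjusted library size) within a library, for counting error alone. Of the 12 fibroblast markers all 12 were detected. Their summed levels did not overlap, at 14800 to 16120 CPM in irradiated and 16250 to 19080 CPM in non-irradiated libraries. At an adjusted p under 0.05, 2 of them, Col1a2 and Vim, were lower after irradiation (16.7%, against 4.15% of all genes tested). The log2 fold change was below 0 for 9 markers and above 0 for 3, with a median of -0.12. By edgeR's quasi-likelihood test 6 had an unadjusted p under 0.05, as had 21.2% of all genes tested. Markers of other cell types were scarce and none was called: epithelial markers summed to 1.16 to 1.65 CPM in irradiated and 0.893 to 2.23 CPM in non-irradiated libraries (1 of 9 tested), and immune markers to 4.09 to 5.57 CPM in irradiated and 3.78 to 4.90 CPM in non-irradiated libraries (2 of 7 tested). Endothelial markers summed to 4.57 to 5.40 CPM in irradiated and 4.01 to 5.02 CPM in non-irradiated libraries (3 of 5 tested), and glial and neuronal markers to 4.38 to 5.06 CPM in irradiated and 3.90 to 5.31 CPM in non-irradiated libraries (2 of 5 tested). Mitochondrial rRNA stood at 15270 and 15430 CPM in irradiated libraries I and II, against 4361 and 5906 CPM in irradiated III and IV and 4203 to 5874 CPM in non-irradiated libraries. The median deviation of the nuclear respiratory chain genes from the non-irradiated mean was -0.03, -0.04, 0.04 and -0.05 on the log2 scale in irradiated libraries I to IV, and the part of the rRNA in it was not tested.

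The upstream sequences of 3 genes are shown because Ndufv2 and Atp5e were the abundant members called after irradiation and Ndufs8 was the abundant member nearest to a call on the other side of the threshold. Each line holds the 150 bases before the RefSeq start on GRCm38.p6, written 5′ to 3′ in the direction of the gene, with capitals for the motifs searched.
Ndufv2 promoter, chr17:66101560-66101709, minus strand: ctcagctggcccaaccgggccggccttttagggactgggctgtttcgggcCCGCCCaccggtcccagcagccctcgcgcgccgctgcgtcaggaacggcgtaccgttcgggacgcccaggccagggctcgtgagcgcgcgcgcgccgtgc
Atp5e promoter, chr2:174464102-174464251, minus strand: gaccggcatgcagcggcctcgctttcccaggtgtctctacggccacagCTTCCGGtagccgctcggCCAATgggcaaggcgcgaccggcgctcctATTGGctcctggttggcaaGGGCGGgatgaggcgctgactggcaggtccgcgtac
Ndufs8 promoter, chr19:3912775-3912924, minus strand: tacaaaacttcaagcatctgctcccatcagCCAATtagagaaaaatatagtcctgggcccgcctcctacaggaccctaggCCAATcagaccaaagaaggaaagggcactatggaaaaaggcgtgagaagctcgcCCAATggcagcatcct
Motifs were searched on both strands as exact letters: the palindromic core of the NRF1 motif, CCGGAAG for ETS factors such as GABP, AAGATGGC for YY1, GGGCGG for the GC box and CCAAT for the CCAAT box. NRF1 and GABP are known as activators of respiratory chain genes. Ndufv2 held a GC box, Atp5e an ETS match, a GC box and a pair of CCAAT boxes, and Ndufs8 CCAAT boxes in the 150 bases printed. In the longer window used next, Ndufs8 also held an ETS match.

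A RefSeq promoter window, running from 250 bases before to 50 after the start, was found for 69 of the 86 genes. Among these, 7.2% held the NRF1 letters, against 2.3% of the 10281 tested genes with a window and 1.1% of all 27025 genes with one. These were Ndufa11, Uqcrc1, Cox6a1, Atp5g2 and Atp5k. The YY1 letters stood in 14.5% of the windows, against 5.2% of tested and 3.2% of all genes, and the ETS letters in 23.2%, against 19.6% and 9.9%. The GC box was found in 42.0% of the windows, against 69.0% of tested and 38.2% of all genes, and the CCAAT box in 43.5%, against 43.4% and 41.1%. These shares describe letters in a window and were not tested.

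In non-irradiated fibroblasts the levels spanned several orders of magnitude when expressed per length, as CPM per kb of the transcript with the longest coding part. The catalytic F1 subunits of ATP synthase led the set: Atp5b, the beta subunit, had 711 ± 32.1 CPM per kb and Atp5a1, the alpha subunit, 361 ± 17.2 CPM per kb in non-irradiated libraries (SD, n = 4). Cox4i1, a common subunit of complex IV, followed at 272 ± 19.7 CPM per kb, Ndufa7, a complex I accessory subunit, at 215 ± 30.5 CPM per kb and Uqcrh, the hinge protein of complex III, at 204 ± 15.6 CPM per kb. The intervals of 1 SD of Ndufa7 and Uqcrh overlapped, so their order is within their spread. Levels per length, and their order below the leading pair, depend on the length taken. Over the union of all annotated exons Atp5b had 321.5 and Atp5a1 285 CPM per kb, but Cox6b1 with 152, Cox6a1 with 144 and Uqcr10 with 132 CPM per kb stood above Cox4i1 with 131 CPM per kb, while Uqcrh had 90.4 and Ndufa7 62.2 CPM per kb. In complex II the order was Sdhd, a membrane anchor, at 116 ± 7.33 CPM per kb, Sdha, the flavoprotein, at 100.5 ± 6.78, Sdhb, the iron-sulfur protein, at 92.8 ± 5.26, and Sdhc, the other anchor, at 44.0 CPM per kb.

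Isoforms of complex IV differed widely in level. Cox4i1, Cox6a1, Cox6b1, Cox7a2, Cox7b and Cox8a, the common forms, stood at 272, 178, 175, 102.5, 53.8 and 133.5 CPM per kb in non-irradiated libraries. Their counterparts were far lower and had few counts: the muscle forms Cox6a2 and Cox7a1 had 0.992 and 0.940 CPM per kb. The testis form Cox6b2 had 0.608, the muscle form Cox8b 0.110, and Cox4i2, the form known from lung, 0.0321 CPM per kb. Cox7b2 and Cox8c had no count in any non-irradiated library. The filter on low counts kept 80 members. The 6 that did not pass the filter and were not tested were Cox4i2, Cox6b2, Cox7b2, Cox8b, Cox8c and a second Atp5o record that shares exons with the neighbouring gene Donson and is called the read-through record here.

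Raw counts of these untested genes were small. Cox4i2 had 7, 1, 5 and 3 counts in irradiated libraries I to IV, against 1, 0, 1 and 1 in non-irradiated libraries. Cox6b2 had 3, 1, 7 and 7 counts in irradiated against 6, 8, 11 and 6 in non-irradiated libraries. Cox7b2 had 3, 1, 0 and 0 counts in irradiated libraries and 0 in each non-irradiated library, Cox8b had 0 in each irradiated library against 0, 2, 0 and 3 in non-irradiated libraries, and Cox8c and the Atp5o read-through record had 0 in all 8.

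**Figure D1:**
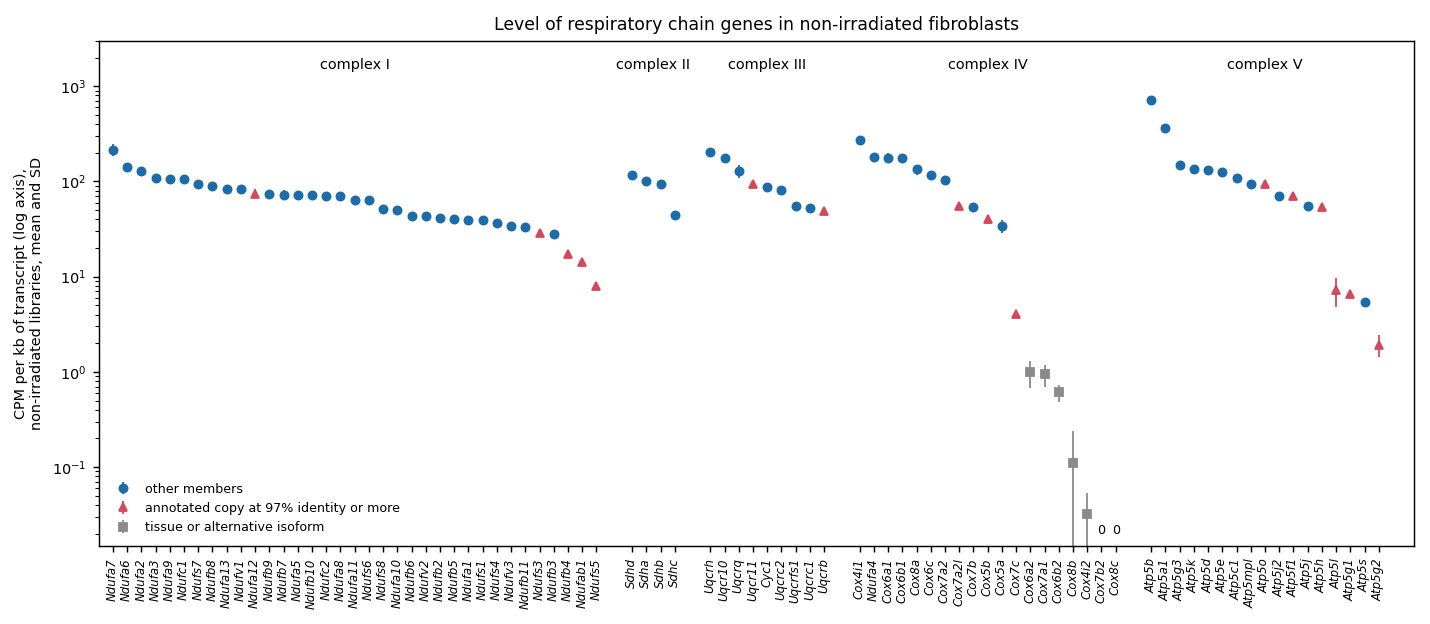
Level of the members drawn in non-irradiated libraries as CPM per kb of transcript on a log axis, with mean and SD of 4 libraries, grouped by complex. Atp5b stands highest at 711 CPM per kb, triangles mark members with a near-identical annotated copy elsewhere in the genome, and tissue or alternative isoforms (squares) lie at 0.992 CPM per kb or lower.

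The c-ring of ATP synthase, the rotor that protons turn, is encoded by Atp5g1, Atp5g2 and Atp5g3, whose mature proteins are known to be the same while their import signals differ. Atp5g3 had 106.9, 107.6, 101.3 and 90.95 CPM in irradiated libraries I to IV, against 106.1, 106.8, 111.2 and 103.1 CPM in non-irradiated libraries. Atp5g1 had 3.497 to 4.27 CPM in irradiated and 3.44 to 4.36 CPM in non-irradiated libraries, and Atp5g2 had 0.626 to 1.05 CPM in irradiated and 0.623 to 1.14 CPM in non-irradiated libraries. Per length, the non-irradiated levels were 150 for Atp5g3, 6.53 for Atp5g1 and 1.94 CPM per kb for Atp5g2. The last 120 coding bases of each are shown because they lie in the mature protein that the 3 genes have in common, and capitals mark bases that differ from Atp5g3.
Atp5g3: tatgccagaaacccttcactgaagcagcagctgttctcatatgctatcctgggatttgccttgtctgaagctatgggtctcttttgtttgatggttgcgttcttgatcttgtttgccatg
Atp5g1: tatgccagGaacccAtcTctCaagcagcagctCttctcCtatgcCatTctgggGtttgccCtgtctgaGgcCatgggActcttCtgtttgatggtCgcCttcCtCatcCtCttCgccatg
Atp5g2: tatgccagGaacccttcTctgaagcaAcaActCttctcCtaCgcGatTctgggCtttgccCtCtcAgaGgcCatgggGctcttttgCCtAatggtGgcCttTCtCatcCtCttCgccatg
Atp5g1 differed from Atp5g3 at 21 of the 120 positions and Atp5g2 at 27. Atp5g1 and Atp5g2, the lower of the 3 genes, each had an annotated pseudogene elsewhere that was far closer than their family members: Gm10039 matched the coding part of Atp5g1 at 99.8% identity over 408 bases, and Gm10175 and Gm10231 matched that of Atp5g2 over all 438 bases.

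Such copies were common in the set. Leaving out tissue and alternative isoforms, the read-through record and the coupling factor Atp5s, 16 of 77 genes had an annotated copy at 97% identity or more over at least 50% of the coding part, nearly all of them processed pseudogenes. Their median level was 34.2 CPM per kb (1.94 to 94.9), against 87.0 CPM per kb (28.2 to 711) for the 61 genes without one. The 7 lowest of the 77, at levels under each of the 61 genes without a copy, were Atp5g2 at 1.94, Cox7c at 4.09, Atp5g1 at 6.53, Atp5l at 7.26, Ndufs5 at 7.98, Ndufab1 at 14.3 and Ndufb4 at 17.2 CPM per kb. This separation depends on leaving out Atp5s, which had no such copy and stood at 5.465 CPM per kb. Of the 7, only Atp5g2 and Cox7c lay under Atp5s. With the union of all annotated exons as length, the medians were 15.8 and 46.5 CPM per kb, and 5 of the 16, namely Atp5g2, Atp5l, Atp5g1, Cox7c and Ndufab1, lay under every gene without a copy. Cox7c, a small subunit of complex IV, is an example, with its whole coding part of 189 bases set beside that of the pseudogene Gm10012, where capitals mark the differences.
Cox7c: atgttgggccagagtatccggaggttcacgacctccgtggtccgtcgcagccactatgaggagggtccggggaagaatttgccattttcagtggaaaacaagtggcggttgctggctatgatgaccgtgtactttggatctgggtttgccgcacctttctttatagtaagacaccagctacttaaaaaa
Gm10012: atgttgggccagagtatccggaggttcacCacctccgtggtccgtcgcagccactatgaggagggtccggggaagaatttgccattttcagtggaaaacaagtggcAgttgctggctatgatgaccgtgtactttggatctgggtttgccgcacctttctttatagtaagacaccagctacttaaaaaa
Counted from the first base of the start codon, Gm10012 differed by G30C and G107A, while a second pseudogene, Gm12338, had the same letters as Cox7c throughout. Gm12338 had 0 CPM in every library, and Gm10012 averaged 0.0290 CPM in irradiated and 0.0389 CPM in non-irradiated libraries, so the copies held almost no counts themselves. How reads that match several places were counted is not given in the sources used here, its part in these levels was not tested, and levels of the 16 genes are uncertain for that reason.

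After irradiation, 3 of the 80 tested members were called at an adjusted p under 0.05, all lower: Ndufv2, Cox6a2 and Atp5e. This is 3.75%, against 6.74% of all 15259 genes tested, or 4.15% called lower and 2.59% called higher, so the share of members was no larger than the background. Cox6a2 reached the CPM level of the filter, 0.308 CPM, in non-irradiated libraries alone, so the filter favoured a lower value in irradiated cells, and among the 79 members that reached it in both groups 2 were called (2.53%, against 6.72% of such genes). Limma-voom called the same 3 members (6.47% of all genes). DESeq2 called Ndufv2, Atp5e and Ndufs8 lower, 3.90% of members against 10.4% of all genes, and gave Cox6a2 no adjusted p. With no filter beyond a count in 1 library the order turned round, with 9.52% of 84 members called against 4.39% of all genes. That fit took in 32976 genes in place of 15259, and the reason for the change was not tested. An unadjusted p under 0.05 was found for 12 members, and for 21.2% of all genes tested. The median log2 fold change, irradiated over non-irradiated, was -0.02 over the members and 0.0009 over all genes tested. Of the 80, 59 had a fold change of less than 0.1 on the log2 scale in either direction, 27 lay above 0 and 53 below. Groups did not overlap for 5 members (6.25%, against 14.2% of all genes tested), namely Ndufv2, Sdhb, Cox6a2, Atp5e and Atp5s, and in each of them the irradiated libraries were the lower ones. Over all genes tested, the irradiated libraries were entirely lower for 8.07% and entirely higher for 6.13%.

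For most members the error was small. The 95% confidence interval of the log2 fold change lay within 0.5 of 0, a 1.41-fold difference, for 74 of the 80 members (92.5%, against 73.3% of all genes tested), and within 0.25 of 0, a 1.19-fold difference, for 57 (71.2%, against 50.1%). Among genes with at least 10 CPM on average the wider interval took in 98.6% of 72 members and 97.1% of 9302 genes, and the narrower interval 79.2% and 78.3%. The 6 members whose interval reached past 0.5 were Cox5a, Cox6a2, Cox7a1, Cox7c, Atp5g2 and Atp5l, of which Cox5a alone had more than 10 CPM.

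**Figure D2:**
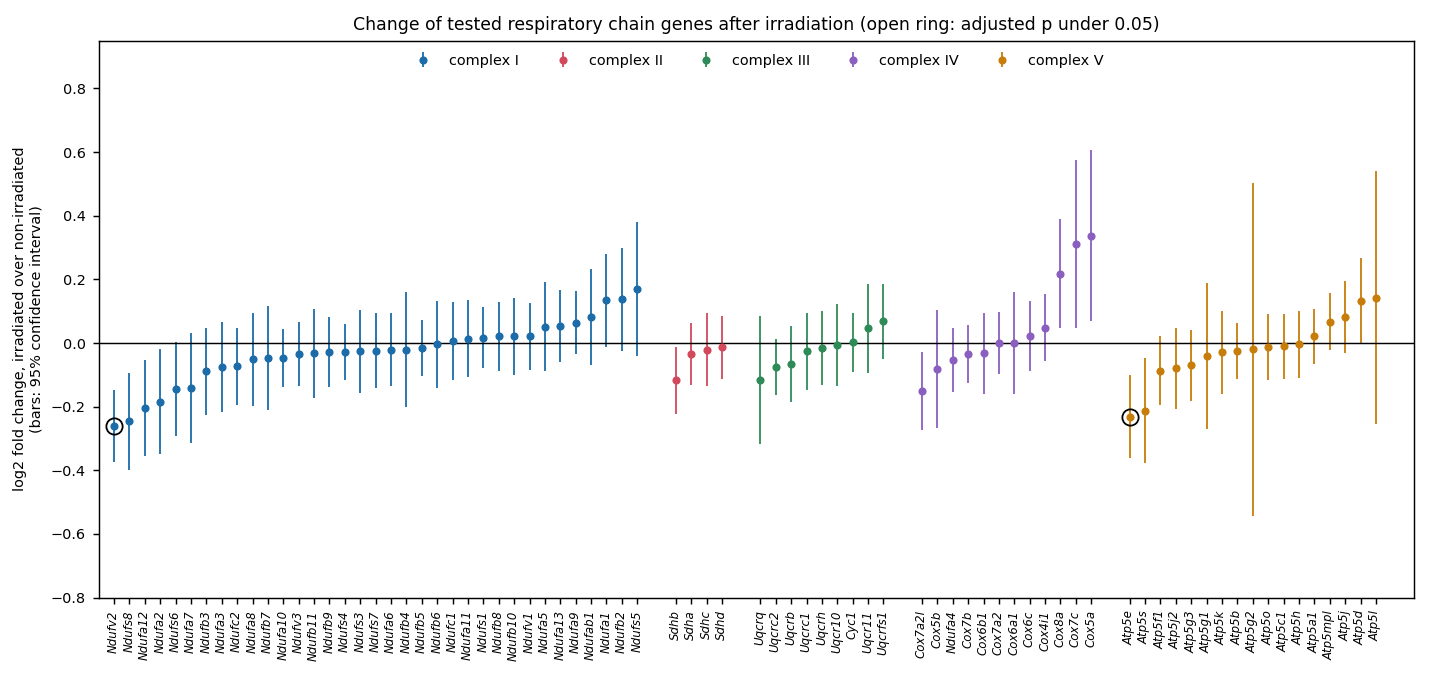
Log2 fold change of 77 tested members, irradiated over non-irradiated, with its 95% confidence interval, ordered by size within each complex. The open rings mark Ndufv2 at -0.26 and Atp5e at -0.23, the called members drawn. Cox6a2, at -2.06, and Cox7a1, at -0.47, both under 1 CPM, lie outside or reach beyond the axis and are not drawn.

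Complex I, the entry point for NADH, had 1 of 36 members called (2.78%, against 6.74% of all genes tested). Its median log2 fold change was -0.03. Ndufv2 (ENSMUSG00000024099, chr17:66078638-66101559 on GRCm38), an iron-sulfur subunit of the module that oxidises NADH, had 60.3, 59.9, 65.5 and 61.3 CPM in irradiated libraries I to IV, against 81.7, 69.7, 74.3 and 70.5 CPM in non-irradiated libraries. Every irradiated library lay below every non-irradiated one. The log2 fold change was -0.26 ± 0.05 (SE), with an adjusted p of 0.00929 by edgeR's quasi-likelihood test with Benjamini-Hochberg adjustment. Without irradiated libraries I and II, which held the most mitochondrial rRNA, it was -0.22 with an adjusted p of 0.12.

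Ndufs8, an iron-sulfur subunit on the path of electrons towards coenzyme Q, came next and lay just outside the threshold. It had 34.2, 34.5, 37.0 and 30.6 CPM in irradiated libraries, against 44.2, 36.6, 43.6 and 37.5 CPM in non-irradiated libraries. Irradiated III was higher than non-irradiated II, so the groups overlapped. The log2 fold change was -0.25 ± 0.07 with an adjusted p of 0.0548, and Ndufs8 passed the threshold in 10 of 20 alternative settings.

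Ndufa7, the complex I member with the highest level per transcript length but not per union exon length, had 98.5, 98.3, 111 and 104.5 CPM in irradiated libraries, against 135, 97.8, 117 and 105 CPM in non-irradiated libraries, and its log2 fold change was -0.14 ± 0.08 with an adjusted p of 0.34. The SD within the non-irradiated group, 16.1 CPM, was larger than the difference between the means, 103 CPM in irradiated and 114 CPM in non-irradiated libraries. The core subunits Ndufs1, Ndufs3, Ndufs7 and Ndufv1 had log2 fold changes between -0.03 and 0.02. None of the 29 accessory subunits was called, and their fold changes ran from -0.20 for Ndufa12 to 0.17 for Ndufs5.

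Complex II, which also serves the citric acid cycle, had no called member among 4, with a median log2 fold change of -0.03. An unadjusted p under 0.05 in edgeR was found for 1 of the 4, and for 21.2% of all genes tested. Sdhb, the iron-sulfur protein, had 100.3, 99.5, 99.8 and 91.3 CPM in irradiated libraries, against 107, 101.3, 114 and 101.6 CPM in non-irradiated libraries. The groups did not overlap, but irradiated I and non-irradiated II lay close together, and the log2 fold change of -0.12 ± 0.05 did not pass (adjusted p = 0.18). Sdha had 290, 278.5, 291 and 279 CPM in irradiated and 308, 267.5, 307 and 283.5 CPM in non-irradiated libraries, and Sdhd 144, 142, 144.5 and 135 CPM in irradiated and 135.5, 142, 156 and 138 CPM in non-irradiated libraries. In both genes the groups overlapped, with log2 fold changes of -0.04 ± 0.05 and -0.01 ± 0.05.

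Complex III had no called member among 9 and 0 with an unadjusted p under 0.05 in edgeR, a median of -0.02, and no member whose groups stood apart. Uqcrc2, a core protein, had 152, 149.6, 150.2 and 139 CPM in irradiated libraries, against 148, 155, 160.0 and 159 CPM in non-irradiated libraries, with non-irradiated I below 3 of the irradiated libraries. Its log2 fold change was -0.08 ± 0.04 (adjusted p = 0.31). Uqcrq, a small subunit, had 47.7, 45.5, 55.0 and 45.4 CPM in irradiated and 60.0, 42.4, 57.8 and 49.8 CPM in non-irradiated libraries, and Uqcrh 112, 114, 113 and 103 CPM in irradiated and 110.5, 105, 124 and 108 CPM in non-irradiated libraries. The irradiated values of both lay within or close to the range of the non-irradiated ones. The electron carriers of this complex, cytochrome c1 (Cyc1) and the Rieske protein (Uqcrfs1), had log2 fold changes of 0.002 and 0.07.

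Complex IV, the terminal oxidase, held both ends of the distribution. Cox6a2 (ENSMUSG00000030785, chr7:128205435-128206387), the heart and muscle form of subunit 6a, was called lower, with 5, 3, 8 and 6 raw counts in irradiated libraries I to IV, against 14, 22, 36 and 17 in non-irradiated libraries. These are 0.138, 0.0908, 0.220 and 0.198 CPM in irradiated libraries, against 0.488, 0.699, 0.975 and 0.536 CPM in non-irradiated libraries, and every irradiated library lay below every non-irradiated one. The log2 fold change was -2.06 ± 0.34 (adjusted p = 0.0024). The gene passed the filter on low counts through the non-irradiated libraries alone, so its direction was favoured by that choice. Without the filter, in a fit of 32976 genes, the log2 fold change was -2.05 and Cox6a2 was again called (adjusted p = 6.2e-07). Why this p was smaller was not tested. Under a minimum of 1 CPM in 4 libraries the gene was not tested. The common form Cox6a1 had 102 ± 5.49 CPM in irradiated and 101 ± 12.8 CPM in non-irradiated libraries (SD, n = 4), a log2 fold change of 0.001 ± 0.07.

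The muscle markers Des, Myh11, Cnn1, Ckm and Actn2 summed to 36.5 to 48.98 CPM in irradiated and 42.7 to 50.3 CPM in non-irradiated libraries, nearly all of it Cnn1. None of the 3 tested was called, and Ckm and Actn2, the skeletal and heart markers, stood at or near 0, at 0 to 5 raw counts a library. In bulk RNA, fewer cells that express a gene and less RNA per cell cannot be told apart. The exons of Cox6a2 overlap those of Itgad on the opposite strand by 70 bases, and Itgad had 0 counts in all 8 libraries.

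The members with the largest upward fold changes were also in complex IV, and none passed the test. By edgeR's quasi-likelihood test the unadjusted p was 0.018 for Cox5a and 0.017 for Cox8a. Without the filter on low counts both passed (adjusted p = 5.7e-06 and 0.00062). Both genes also pass the filter, so their counts were the same in that fit. It took in 32976 genes in place of 15259, and why the p-values became smaller was not tested. Cox5a, a matrix-side subunit, had 21.7, 28.9, 33.8 and 25.9 CPM in irradiated libraries, against 19.99, 21.4, 26.8 and 18.9 CPM in non-irradiated libraries, a log2 fold change of 0.34 ± 0.13 (adjusted p = 0.13). Cox8a, a small membrane subunit, had 76.1, 84.1, 95.5 and 86.1 CPM in irradiated and 73.6, 67.9, 85.5 and 66.8 CPM in non-irradiated libraries, 0.22 ± 0.08 (adjusted p = 0.13). In both genes the overlap came from non-irradiated III, and the other 3 non-irradiated libraries lay below all irradiated ones.

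Cox7c, one of the genes with near copies, had 3.04, 2.42, 2.75 and 2.70 CPM in irradiated and 2.30, 2.19, 1.92 and 2.43 CPM in non-irradiated libraries, 0.31 ± 0.12 (adjusted p = 0.16). Cox4i1, the most abundant complex IV subunit per transcript length but not per union exon length, had 208, 204, 221.5 and 206 CPM in irradiated and 199, 197, 224 and 191 CPM in non-irradiated libraries, 0.05 ± 0.05 (adjusted p = 0.62). The remaining common subunits, Cox5b, Cox6a1, Cox6b1, Cox6c, Cox7a2, Cox7b and Ndufa4, lay between -0.08 and 0.02. Cox7a2l, which is known for joining complexes III and IV into supercomplexes, had a log2 fold change of -0.15 ± 0.06 (adjusted p = 0.14).

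Complex V, the ATP synthase, had 1 of 17 tested members called (5.88%, against 6.74% of all genes tested) and a median of -0.02. Atp5e (ENSMUSG00000016252, chr2:174461072-174464105), the epsilon subunit in the central stalk of F1, had 48.2, 45.9, 45.2 and 39.9 CPM in irradiated libraries, against 57.7, 50.7, 52.8 and 49.4 CPM in non-irradiated libraries. The groups did not overlap, with irradiated I just below non-irradiated IV. The log2 fold change was -0.23 ± 0.06 with an adjusted p of 0.0369, just inside the threshold. The call was lost when irradiated II, III or IV or non-irradiated I or III was left out, with adjusted p-values of 0.0704, 0.0762, 0.107, 0.0991 and 0.0661.

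None of the other F1 subunits was called. Atp5b had 1302, 1313, 1400.0 and 1341 CPM in irradiated and 1375, 1330.0, 1442 and 1302 CPM in non-irradiated libraries, -0.02 ± 0.04 (adjusted p = 0.78). Atp5a1 and Atp5c1, the alpha and gamma subunits, had log2 fold changes of 0.02 ± 0.04 and -0.01, and Atp5d, the delta subunit of the central stalk, 0.13 ± 0.06 (adjusted p = 0.25). The difference between Atp5e and these genes was not tested. Atp5s, a coupling factor of low level, had 6.67, 7.36, 7.16 and 6.85 CPM in irradiated and 8.23, 7.38, 8.66 and 8.19 CPM in non-irradiated libraries. Its groups were nearly touching at irradiated II and non-irradiated II, and the log2 fold change of -0.21 ± 0.08 did not pass (adjusted p = 0.12).

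**Figure D3:**
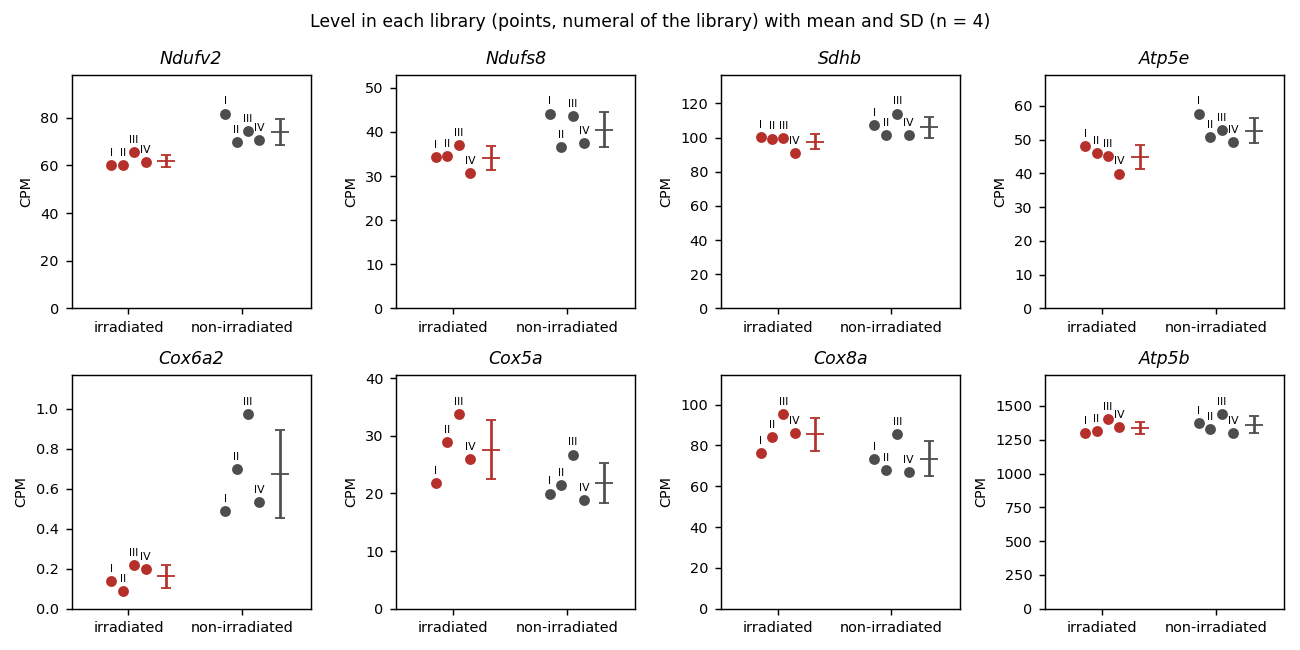
CPM of 8 members in each of 4 irradiated (left) and 4 non-irradiated (right) libraries, with the library numeral at each point and the mean and SD beside it. The irradiated points of Ndufv2, Sdhb, Atp5e and Cox6a2 lie below all non-irradiated points, at 59.9 to 65.5 CPM in irradiated against 69.7 to 81.7 CPM in non-irradiated libraries for Ndufv2, while those of Ndufs8, Cox5a, Cox8a and Atp5b overlap them.

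Differences between libraries of a group ran through the whole set. The summed level of the members was 7429, 7428, 7829 and 7333 CPM in irradiated libraries I to IV, against 7660, 7345, 8093 and 7289 CPM in non-irradiated libraries, or 7505 ± 221 CPM in irradiated and 7597 ± 369 CPM in non-irradiated libraries (SD, n = 4). Library III was the highest of its group in both. Taking the median deviation of the tested members from the non-irradiated mean, irradiated III stood at 0.04 and the other irradiated libraries at -0.05 to -0.03, and non-irradiated III at 0.09 with the others at -0.06 to 0.02. Each of the 5 complexes was highest in library III in both groups. Over all genes tested, irradiated I and II were close in counts, as were III and IV (chi-square per degree of freedom 5.52 and 5.14). It was 16.1 to 27.8 between libraries of these different pairs, and 5.33 to 13.9 between non-irradiated libraries. The part of mitochondrial rRNA in this was not tested.

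The spread between non-irradiated libraries III and IV, 0.09 against -0.06, was larger than the median difference between groups. Without non-irradiated III the median log2 fold change of the members was 0.01 in place of -0.02, and Cox5a and Cox8a passed the test as higher (adjusted p = 0.0405 and 0.0207). Summed levels by complex overlapped between groups throughout: complex I had 2152 ± 63.6 CPM in irradiated and 2204 ± 112 CPM in non-irradiated libraries, complex II 661 ± 22.8 CPM in irradiated and 680.0 ± 36.6 CPM in non-irradiated libraries, and complex III 748 ± 24.96 CPM in irradiated and 759 ± 41.4 CPM in non-irradiated libraries. Complex IV had 879 ± 39.7 CPM in irradiated and 868 ± 59.7 CPM in non-irradiated libraries, and complex V 3064 ± 82.8 CPM in irradiated and 3086 ± 126 CPM in non-irradiated libraries.

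**Figure D4:**
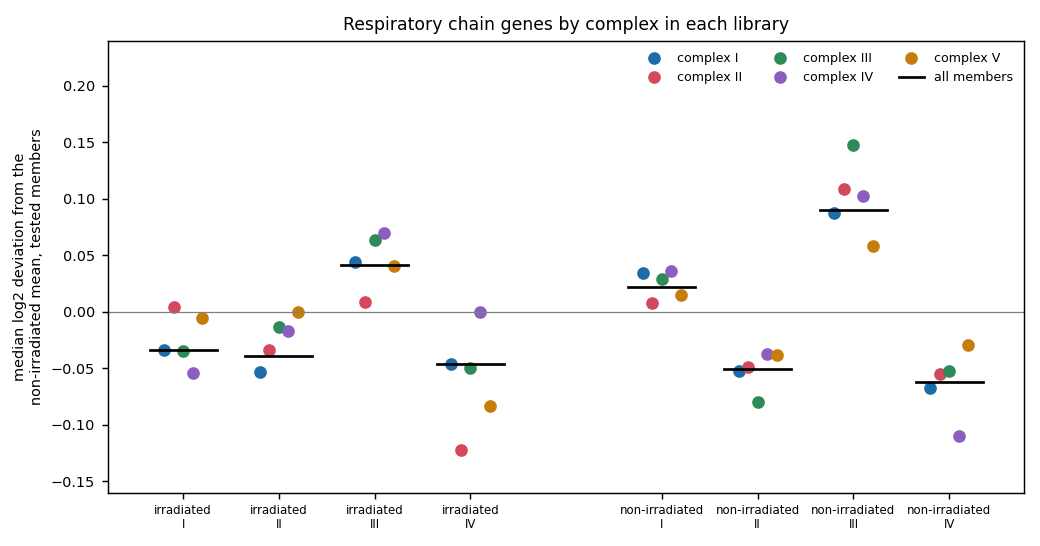
Median log2 deviation of tested members from their non-irradiated mean in each of 4 irradiated (left) and 4 non-irradiated (right) libraries, coloured by complex, with a black line for all members. Library III is highest in each group, at 0.04 in irradiated and 0.09 in non-irradiated cells, and the groups overlap.

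Assembly factors insert cofactors and join the subunits of each complex. None was called: 0 of 15 tested for complex I, 0 of 4 for complex II, 0 of 6 for complex III, 0 of the 18 tested out of 21 for complex IV and 0 of 4 for complex V, with the inhibitor Atpif1 among the last. By edgeR's quasi-likelihood test an unadjusted p under 0.05 was reached by 1, 0, 2, 2 and 2 of them in complexes I to V, and by 21.2% of all genes tested. The smallest p-values belonged to Acad9 (0.11 ± 0.04, adjusted p = 0.11) and Ndufaf5 (-0.09 ± 0.05, 0.28) for complex I, Sdhaf1 (0.18 ± 0.09, 0.28) and Sdhaf2 (0.03 ± 0.04, 0.73) for complex II, Uqcc2 (-0.21 ± 0.07, 0.0934) and Lyrm7 (0.35 ± 0.16, 0.22) for complex III, Coa6 (0.20 ± 0.07, 0.11) and Cox11 (0.60 ± 0.23, 0.14) for complex IV, and Atpaf1 (0.54 ± 0.19, 0.12) and Atpif1 (-0.18 ± 0.07, 0.17) for complex V, each given as log2 fold change with SE and adjusted p. The symbol families leave out 4 further proteins of the complexes, Ndufb1-ps, Ndufa4l2, Usmg5 and again Atpif1. None was called, 3 of the 4 had an unadjusted p under 0.05 (against 21.2% of all genes tested), and the median log2 fold change was -0.22. Ndufb1-ps had a log2 fold change of 0.08, Ndufa4l2 of -0.34 and Usmg5 of -0.25. For Ndufa4l2 alone of the 4 every irradiated library lay below every non-irradiated one (25%, against 8.07% of all genes tested).

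Around the chain, a list of 19 genes took in mobile electron carriers, coenzyme Q genes and the enzymes Gpd2, Dhodh and Etfdh, which pass electrons to coenzyme Q. It had no call and 2 unadjusted p-values under 0.05 in edgeR, against 21.2% of all genes tested. The median log2 fold change was -0.001, with Coq10b at 0.15 ± 0.05 and Coq8b at -0.17 ± 0.05 (adjusted p = 0.0816 for both). The 16 genes of pyruvate dehydrogenase and the citric acid cycle had no call and 3 unadjusted p-values under 0.05, against 21.2% of all genes tested. Their median was -0.05, and 14 values lay below 0, as did 7587 of all 15259 genes tested. The smallest p-values were those of Fh1, fumarase, at -0.15 ± 0.05 (adjusted p = 0.0858) and Idh3a at -0.10 ± 0.03 (adjusted p = 0.0942). Among 10 outer membrane and matrix genes, Hspe1 alone was called (10%, against 6.74% of all genes tested). Hspe1, the matrix co-chaperonin, was lower, with 28.03 ± 1.63 CPM in irradiated and 34.1 ± 2.81 CPM in non-irradiated libraries (SD, n = 4), -0.28 ± 0.06 (adjusted p = 0.0155).

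Of 15 transcription factors and coactivators known for respiratory genes, 2 were called (13.3%, against 6.74% of all genes tested), in opposite directions. Gabpb1, a subunit of GABP, had 85.1, 82.4, 87.8 and 89.1 CPM in irradiated libraries, against 75.9, 77.1, 76.0 and 78.7 CPM in non-irradiated libraries, a log2 fold change of 0.16 ± 0.04 (adjusted p = 0.0233). Myc had 60.2, 58.8, 61.5 and 56.0 CPM in irradiated and 74.5, 65.1, 70.0 and 68.1 CPM in non-irradiated libraries, -0.23 ± 0.05 (adjusted p = 0.0101). In neither gene did the groups overlap, which held for 4 of the 15 (26.7%, against 14.2% of all genes tested).

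The subunits encoded by the mitochondrial genome were listed with counts for 7 of 13 genes, and mt-Atp6, mt-Atp8, mt-Co2, mt-Co3, mt-Nd3 and mt-Nd4l were listed at 0 in every library. All 7 had a log2 fold change above 0, with a median of 0.13. Their summed level overlapped between groups, at 2168 to 2635 CPM in irradiated and 1988 to 2426 CPM in non-irradiated libraries. Of the 7, mt-Nd6 alone was called (14.3%, against 6.74% of all genes tested). It had 13.2, 14.2, 11.3 and 13.3 CPM in irradiated and 8.89, 8.996, 8.66 and 10.1 CPM in non-irradiated libraries, 0.50 ± 0.08 (adjusted p = 0.00177). Mt-Nd6 lies on the strand opposite to the other mitochondrial protein genes, and since the strand setting of the counting is not given in the sources used here, reads from both strands cannot be told apart.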

How the data were processed

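The authors deposited whole-number read counts per Ensembl gene, 1 file per library and 8 in all, without normalization. Per the submitters' processing notes, bcl2fastq 2.20.0.422, STAR 2.5.2a, featureCounts 1.5.0-p1 and the mm10 build were used. Per the labels, polyA RNA was extracted with a Qiagen RNeasy mini kit. The annotation release, strand setting and treatment of multi-mapping reads are not stated by them or the labels.

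Symbols, coordinates and transcripts came from GENCODE M21 on GRCm38, the assembly of mm10. It named 55394 of 55573 identifiers, and the 179 others held 0.0223% of counts. The comparison used edgeR 4.0.16 (R 4.3.3): TMM factors, filterByExpr (minimum count 10, minimum total 15), the quasi-likelihood test for group as the sole term over all 8 libraries, and Benjamini-Hochberg adjustment over the 15259 genes tested. Called means an adjusted p under 0.05. CPM use TMM-scaled library sizes, and each SE follows from the log2 fold change and its F value. Near copies were found by aligning coding parts to all GENCODE transcripts with megablast (at least 90% identity over 50% of the coding part). Promoters are RefSeq's, matched by gene identifier.

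Values in every library are given for called members and, per complex, the 2 smallest p-values, the largest fold change among genes with at least 5 CPM and the highest level per length. Others, such as Cox7c, Ndufa12 and Atp5d, were named after their values were seen. One member enters the fit and the counts but is not reported here. The members and lists were chosen with earlier results of these data known. The procedure was also tested on simulated counts. Alternatives were DESeq2 1.42.0, RLE or upper-quartile factors in edgeR, voom in limma 3.58.1, other filters, a threshold of 0.01, a replicate block, a GC and length offset, TMM without the members and mitochondrial genes, leaving out each library, and leaving out irradiated I and II. Union exon length was added after the data were seen.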

Additional observations from a re-analysis of the deposited data

Results flagged for a closer look

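In 44 groups of 4 libraries, covering the named members and the summed levels of the set and its complexes, the highest or lowest library was compared with the gap to its neighbours, and 2 groups held a library that stood apart. Chance alone gives about 1 in 20. Sdhb had 91.25 CPM in irradiated IV, against 99.5 to 100.3 CPM in the other irradiated libraries, which lies on the side of the difference between groups. The summed level of complex V was 3187 CPM in irradiated III, against 3005 to 3036 CPM in the other irradiated libraries. Irradiated III was also the highest irradiated library for the whole set.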

How the results depend on the processing

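Against 3 members called lower and 0 called higher, the count became 6 lower and 2 higher with no filter beyond a count in 1 library (9.52% of members, against 4.39% of all genes), and 6 lower and 1 higher with the GC and length offset together with the replicate block (8.75% against 8.87%). With the replicate block alone it was 4 lower and 2 higher (7.5% against 8.86%), the higher ones being Cox5a and Cox8a. Leaving out each library in turn gave 2 to 5 lower and 0 to 2 higher, and Cox5a and Cox8a appeared as higher without irradiated I (Cox5a) or non-irradiated III (both). Without non-irradiated II, 5 were called lower. Without both irradiated I and II, 2 were called lower, Cox6a2 and Atp5e. The other settings gave 2 to 4 lower and 0 higher. The share of members called exceeded that of all genes in 3 of the 20 alternatives: with no filter, without irradiated I (5% against 4.85%) and without non-irradiated IV (5% against 4.96%). The cause of these changes was not tested, except that a count with no filter or with fewer libraries rests on another number of genes or samples. Across 20 alternatives Ndufv2 was called in 19 and Atp5e in 14. Cox6a2 was called in the 18 that gave it an adjusted p, with a highest value of 0.04998 without both irradiated I and II. In the main fit it passed the filter through non-irradiated libraries alone, which favoured a lower value in irradiated cells. The settings reuse the same counts, so their number is no separate support for that call. DESeq2 gave Cox6a2 no adjusted p, and a minimum of 1 CPM in 4 libraries removed it. Ndufs8 was called in 10, Cox5a in 5, Cox8a and Ndufa12 in 3 and Ndufa2 in 2. The other 72 tested members were called in none, and no named member changed direction while called. Whether the replicate numerals pair the samples is not known. Libraries I to IV correlated with the library of the same numeral at 0.025, -0.033, 0.275 and 0.147 in their deviations from the group means. Libraries with unlike numerals correlated at -0.226 to 0.148. With union exon length in place of transcript length, the level per kb was lower for Atp5l (0.613 against 7.26), Atp5g1 (0.792 against 6.53) and Ndufab1 (2.94 against 14.3), for example. Depth limits the isoforms of complex IV with few counts, for which only large differences could be detected.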

Other observations

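Ribosomal protein genes give a comparison with another large gene set. Of 77 tested mitochondrial ribosomal protein genes, which build the ribosome that translates the mitochondrial subunits, none was called by edgeR's quasi-likelihood test, 7 had an unadjusted p under 0.05, and the median log2 fold change was -0.01. Mrpl13 (-0.11 ± 0.04, adjusted p = 0.11) and Mrpl18 (0.15 ± 0.05, adjusted p = 0.13) had the smallest p-values. Library III was the highest of its group here too, at 3300.0 CPM in irradiated and 3312 CPM in non-irradiated cells, while the other libraries stood at 3117 to 3121 CPM in irradiated and 3106 to 3142 CPM in non-irradiated cells.

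Of 76 tested cytosolic ribosomal protein genes, 23 had an unadjusted p under 0.05, against 21.2% of all genes tested. In this list 4 were called lower and 0 higher, or 5.26% against 6.74% of all genes tested: Rpl13a with 32.3 ± 0.936 CPM in irradiated and 41.7 ± 1.84 CPM in non-irradiated libraries, Rpl13 with 102 ± 8.14 CPM in irradiated and 124 ± 3.43 CPM in non-irradiated libraries, Rpl14 with 95.5 ± 4.60 CPM in irradiated and 118 ± 13.2 CPM in non-irradiated libraries, and Rpl22 with 169 ± 6.47 CPM in irradiated and 198.5 ± 11.2 CPM in non-irradiated libraries (SD, n = 4 each). Their log2 fold changes were -0.37, -0.28, -0.30 and -0.23, and the median of the list was -0.001. Near copies of these genes were not searched for.

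Exons of 30 of the 86 respiratory chain genes overlap those of another annotated gene, and Cox6a2 is the called member among them.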
